A study of Mus musculus with 18 samples.

Results

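The genes described here encode the proteins of the spliceosomal small nuclear ribonucleoproteins (snRNPs): the Sm proteins, the Sm-like (LSm) proteins and the proteins specific to single snRNPs. Members were all protein-coding genes of the count table whose symbol starts with Snrp, Snrnp or Lsm. There were 33 such genes of 25957 in the table, and 32 of them had enough counts to be among the 10075 genes tested. The remaining member, Lsmem1, had 7 counts over all 18 libraries, which was too few to test. It matches by its name alone, as it encodes a leucine-rich membrane protein and not an LSm protein. Measurements came from C2C12 cells, an established line of mouse myoblasts that grows attached to the dish, sequenced in bulk by BRB-seq, in which each sample's cDNA is barcoded before pooling and reads come mainly from the 3′ ends of mRNAs.

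All 6 groups were grown with 20% fetal bovine serum, and each held 3 libraries, numbered as lots in the labels and called replicates 1 to 3 here. For control, lysis buffer went straight onto the plate and the cells were scraped off. The 3 trypsin groups were washed with PBS, covered with 200 µL of 0.25% trypsin and left at 37 °C, either for 30 s or for 3 min or 30 min. For low trypsin the same volume was added but withdrawn immediately, before 3 min at 37 °C without it. The cold protease group was washed in the same way and shaken for 5 min at 4 °C in 200 µL of cold-active protease. Control and treated cells thus also differed in washing, incubation and harvest, which cannot be told apart from the enzyme. The labels leave unsaid what a lot is. The p-values therefore reflect the spread among these libraries alone, and that spread may be technical. All groups are a single cell line, with no second line to compare.

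An snRNP is a small nuclear RNA bound by proteins, and the snRNPs assemble on introns to form the spliceosome, which removes them from pre-mRNA. The Sm proteins B, D1, D2, D3, E, F and G close into a ring around the U1, U2, U4 and U5 RNAs, a step guided by the SMN complex in the cytoplasm. A related ring of LSm proteins with LSm8 binds the end of U6 RNA in the nucleus, and a ring with LSm1 in its place binds deadenylated mRNAs in the cytoplasm and promotes their decapping. Myoblasts, like other dividing cells, need these proteins to splice nearly all of their mRNAs.

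Totals were 1490869 to 2480690 counts per library, so that 3 counts corresponded to 1.21 to 2.01 CPM, a count scaled to a common library total. The members together took 0.413% ± 0.015 of the counts in control libraries (mean ± SD, n = 3), 0.389% ± 0.0013 after 30 s, 0.388% ± 0.0030 after 3 min and 0.400% ± 0.0028 after 30 min in trypsin. Their share was 0.400% ± 0.013 with low trypsin and 0.417% ± 0.0071 with cold protease. The 7 myoblast markers summed to 1220 to 1470 CPM over the libraries of all groups. Most of this was Des (886 CPM on average), and Myf6 was near 0 (0.834 CPM on average). Markers of fibroblasts, endothelial cells and macrophages summed to at most 13.7, 2.05 and 7.1 CPM, and those of adipocytes to 13.2 to 26.6 CPM, nearly all of it Pparg. Levels below are CPM with TMM scaling, and changes are fitted log2 differences ± SE with Benjamini-Hochberg adjusted p-values of edgeR's quasi-likelihood test over all genes tested. A gene is said to rise, fall or be called where that p is under 0.05. In bulk RNA, fewer cells that express a gene and less of its RNA per cell cannot be told apart.

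Transcripts of several ring proteins were lower after short trypsin treatment. No gene of a protein outside the rings was called against control, but these genes were few. At the shares of all genes given below they would hold few calls, so no contrast with the rings is read from this. After 30 s in trypsin 7 of the 32 tested members fell against control and none rose, where 3.7% of all genes tested were called lower and 3.24% higher. After 3 min 4 members fell and none rose (2.95% of all genes lower, 1.01% higher), and after 30 min 2 fell and none rose (2.61% lower, 2.07% higher). No member was called with low trypsin, where 5.19% of all genes were called in either direction, or with cold protease, where 0.665% were. DESeq2 also called none in either. With cold protease it gave Snrpd2 no adjusted p, and a gene without one cannot be called. At an unadjusted p under 0.05 edgeR gave 5 of the 32 members with low trypsin and 4 with cold protease. Of the 10075 genes tested, 1567 and 885 passed that rule, so nothing particular to the members is read from these counts. The median log2 change over the tested members was -0.08 at 30 s, -0.14 at 3 min and -0.09 at 30 min, against 0.00, 0.01 and 0.00 over all genes tested. With low trypsin and cold protease it was -0.03 and -0.02. These 5 comparisons share the control libraries. An F test over the 6 groups called 7 members (Snrpe, Snrpd2, Lsm6, Snrpd1, Snrpa, Snrpd3 and Snrpg), with 11.5% of all genes called.

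**Figure D1:**
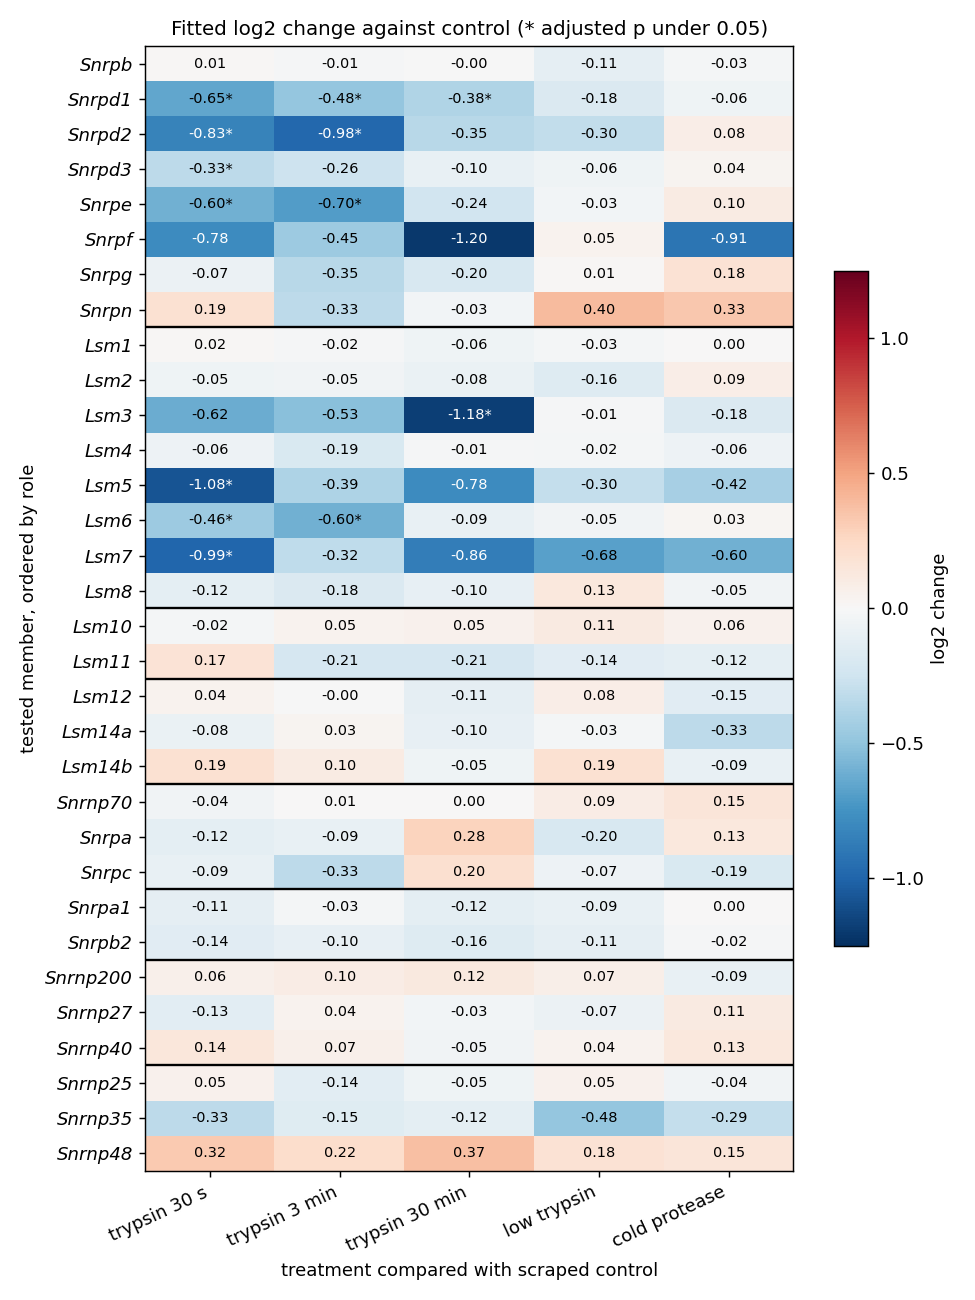
Fitted log2 change against scraped control for each of the 32 tested members (rows, ordered by role, black lines between roles) in the 5 treatments (columns); blue is lower, red is higher and a star marks an adjusted p under 0.05. The starred cells are all lower and lie in the 3 trypsin time points, among Sm and LSm ring genes.

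The promoters of the 3 members with the smallest p of the F test are shown as a description of sequence. These genes were picked from the same data, and whether their changes share a control was not tested. Each window is the 250 bases before the RefSeq gene start, 5′ to 3′ on the gene's strand (GRCm38.p6). GENCODE places the start of Snrpd2 further out, so that the last 116 bases of its RefSeq window lie in the first exon, and only the 134 bases before that exon are printed. The sequences are chr7:19149588-19149721 on the plus strand for Snrpd2, chr1:133610281-133610530 on the minus strand for Snrpe and chr8:78821153-78821402 on the minus strand for Lsm6. Capitals mark CGGAAG, the core bound by ETS factors, on either strand.
Snrpd2: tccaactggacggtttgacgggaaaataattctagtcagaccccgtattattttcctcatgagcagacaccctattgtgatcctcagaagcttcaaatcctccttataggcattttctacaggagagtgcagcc
Snrpe: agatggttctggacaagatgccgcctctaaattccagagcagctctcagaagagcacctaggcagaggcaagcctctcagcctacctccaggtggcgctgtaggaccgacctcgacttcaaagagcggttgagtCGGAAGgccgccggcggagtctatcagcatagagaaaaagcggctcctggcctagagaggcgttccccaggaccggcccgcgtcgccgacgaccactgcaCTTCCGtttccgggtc
Lsm6: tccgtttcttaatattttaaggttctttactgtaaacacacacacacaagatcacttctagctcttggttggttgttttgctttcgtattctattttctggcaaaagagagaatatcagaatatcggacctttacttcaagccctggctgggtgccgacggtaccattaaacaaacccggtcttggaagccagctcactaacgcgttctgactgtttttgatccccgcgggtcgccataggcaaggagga
The RefSeq windows of Snrpd2 and Snrpe had 2 matches each and that of Lsm6 none, so the letters are not common to the 3 genes. Both matches of Snrpd2 lie in the part that is exon by GENCODE. The last 11 bases of the Snrpe window are exon by GENCODE, and the window overlaps an exon of the non-coding gene Gm26706. Over both strands CGGAAG was in 14 of the 27 members with a promoter entry in use. It was in 4 of 7 such members called lower against control, and in 13.6% of 32851 promoter windows of the same length. Here and below a member was counted if any of its windows held the letters. The percentages are of single windows, so members and windows are not compared like for like. GGGCGG, the GC box, was in 17 of 27 members (32.7% of all windows), CCAAT in 10 (33.8%) and TATAAA in 3 (12.4%). AAGATGGC, bound by YY1, was in 1 member (1.56%). A match is a description of the letters and not a binding site. Snrnp40, Snrpb, Lsm12, Lsm1 and Lsm4 had no entry. Snrpd1 was not looked up, because member windows on its chromosome, 18, were left out, while the windows of all genes were not filtered in this way.

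Of the 8 members called against control, 4 belonged to the Sm ring and 4 to the LSm rings. Of the ring's 8 tested genes 4 fell at 30 s (Snrpd1, Snrpd2, Snrpd3 and Snrpe), 3 at 3 min (Snrpd1, Snrpd2 and Snrpe) and 1 at 30 min (Snrpd1). The median log2 change over the Sm ring was -0.47 at 30 s, -0.40 at 3 min, -0.22 at 30 min, -0.05 with low trypsin and 0.06 with cold protease.

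Snrpd2 encodes SmD2, which enters the ring as a pair with SmD1. The gene lies at chr7:19149722-19153542 on the plus strand (GRCm38). Its level was 95.6, 80.6 and 97.6 CPM in the control libraries, 49.5, 52.8 and 51.4 after 30 s, 44.2, 43.2 and 51.6 after 3 min, and 67.2, 69.7 and 78.2 after 30 min. All 6 libraries of the 2 short treatments lay below every other library. Low trypsin gave 84.2, 72.6 and 64.9 CPM and cold protease 90.1, 105 and 92.4 CPM. The log2 change from control was -0.83 ± 0.12 at 30 s (adjusted p = 4.87e-07) and -0.98 ± 0.13 at 3 min (adjusted p = 4.6e-08), so the mean level fell by 43.8% and fell by 49.4%. At 30 min it was -0.35 ± 0.12 (adjusted p = 0.0768) and with low trypsin -0.30 ± 0.11 (95% interval -0.53 to -0.08, adjusted p = 0.122), neither of which passed. Without control replicate 2 the 30 min value was -0.43 and passed (adjusted p = 0.0461), and without low trypsin replicate 1 the low trypsin value was -0.41 and passed (adjusted p = 0.0489). With cold protease the change was 0.08, with a 95% interval of -0.14 to 0.30.

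Snrpe encodes SmE, which joins SmF and SmG before the ring closes. It lies at chr1:133603871-133610291 on the minus strand (GRCm38). Control libraries had 217, 199 and 193 CPM, against 140, 138 and 121 CPM after 30 s and 112, 130 and 133 CPM after 3 min. After 30 min the libraries spread over 179, 140 and 199 CPM, while low trypsin gave 211, 200 and 184 CPM and cold protease 216, 210 and 230 CPM. The 6 short-treatment libraries again did not overlap with control, low trypsin or cold protease, and the 30 min libraries reached from the short treatments to control. The change from control was -0.60 ± 0.09 at 30 s (adjusted p = 1.09e-06) and -0.70 ± 0.09 at 3 min (adjusted p = 1.4e-07). At 30 min it was -0.24 (adjusted p = 0.124), with low trypsin -0.03 (95% interval -0.21 to 0.14) and with cold protease 0.10 (95% interval -0.06 to 0.28). Without 30 min replicate 3 the 30 min value was -0.35 and passed (adjusted p = 0.0217).

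Snrpd1 encodes SmD1, the partner of SmD2, and lies at chr18:10617775-10642079 on the plus strand (GRCm38). Its libraries had 218, 181 and 189 CPM in control, 119, 140 and 114 after 30 s, 144, 122 and 154 after 3 min, and 156, 134 and 161 after 30 min. Low trypsin gave 193, 150 and 172 CPM and cold protease 192, 197 and 170 CPM. None of the 9 libraries with a full trypsin incubation reached the lowest control library. Snrpd1 was the only member called at all 3 trypsin times, with changes of -0.65 ± 0.10 (adjusted p = 6.93e-07), -0.48 ± 0.10 (adjusted p = 0.000376) and -0.38 ± 0.10 (adjusted p = 0.00882). The 30 min call was lost without control replicate 1 (-0.30, adjusted p = 0.0873) or without 30 min replicate 2 (-0.30, adjusted p = 0.123).

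Snrpd3 encodes SmD3, which pairs with SmB. Its control libraries, at 361, 275 and 323 CPM, stood above the 30 s libraries at 271, 242 and 244 CPM by a narrow gap. The other libraries had 272, 266 and 261 CPM after 3 min, 314, 321 and 255 after 30 min, 298, 314 and 306 with low trypsin, and 302, 309 and 373 with cold protease. The change was -0.33 ± 0.08 at 30 s (adjusted p = 0.0034), and the call was lost without control replicate 1 (-0.24, adjusted p = 0.0776). At 3 min it was -0.26 (adjusted p = 0.0641), which passed without control replicate 2 (-0.36, adjusted p = 0.0056).

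Snrpg encodes SmG. Its levels were 112, 114 and 95.7 CPM in control, 103, 102 and 99.6 after 30 s, 81.9, 69.4 and 102 after 3 min, and 99.9, 78.6 and 103 after 30 min. Low trypsin gave 108, 119 and 96.7 CPM and cold protease 116, 120 and 128 CPM. The control range took in all 30 s libraries and was overlapped at 3 min. Its 3 min change of -0.35 did not pass (adjusted p = 0.0836), but did without control replicate 3 (-0.43, adjusted p = 0.044) or without 3 min replicate 3 (-0.51, adjusted p = 0.00715).

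Snrpf encodes SmF and was counted at a very low level: 8.98, 7.33 and 9.9 CPM in control, 6.95, 3.07 and 4.82 after 30 s, 5.3, 8.2 and 5.36 after 3 min, and 4.4, 1.57 and 5.67 after 30 min. Low trypsin gave 9.46, 10.3 and 7.47 CPM and cold protease 4.2, 4.12 and 5.74 CPM. Cold protease was among the groups with low values, unlike in the ring genes above, and no cold protease library reached control. No change passed (30 s -0.78, adjusted p = 0.262; 30 min -1.20, adjusted p = 0.080; cold protease -0.91, adjusted p = 0.406), and the 95% interval at 30 min was wide, -2.06 to -0.34. Snrpf had 215 counts in all libraries together.

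Snrpb, which encodes SmB, lay at 633 to 758 CPM in all 18 libraries, and its largest difference from control was -0.11 with low trypsin (adjusted p = 0.298). Its 95% interval at 30 s, -0.10 to 0.12, and at 3 min, -0.12 to 0.10, lay outside the intervals of Snrpd1, Snrpd2 and Snrpe. Snrpn encodes SmN, a close relative of SmB that replaces it in neurons, and averaged 4.35 CPM with no called change.

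**Figure D2:**
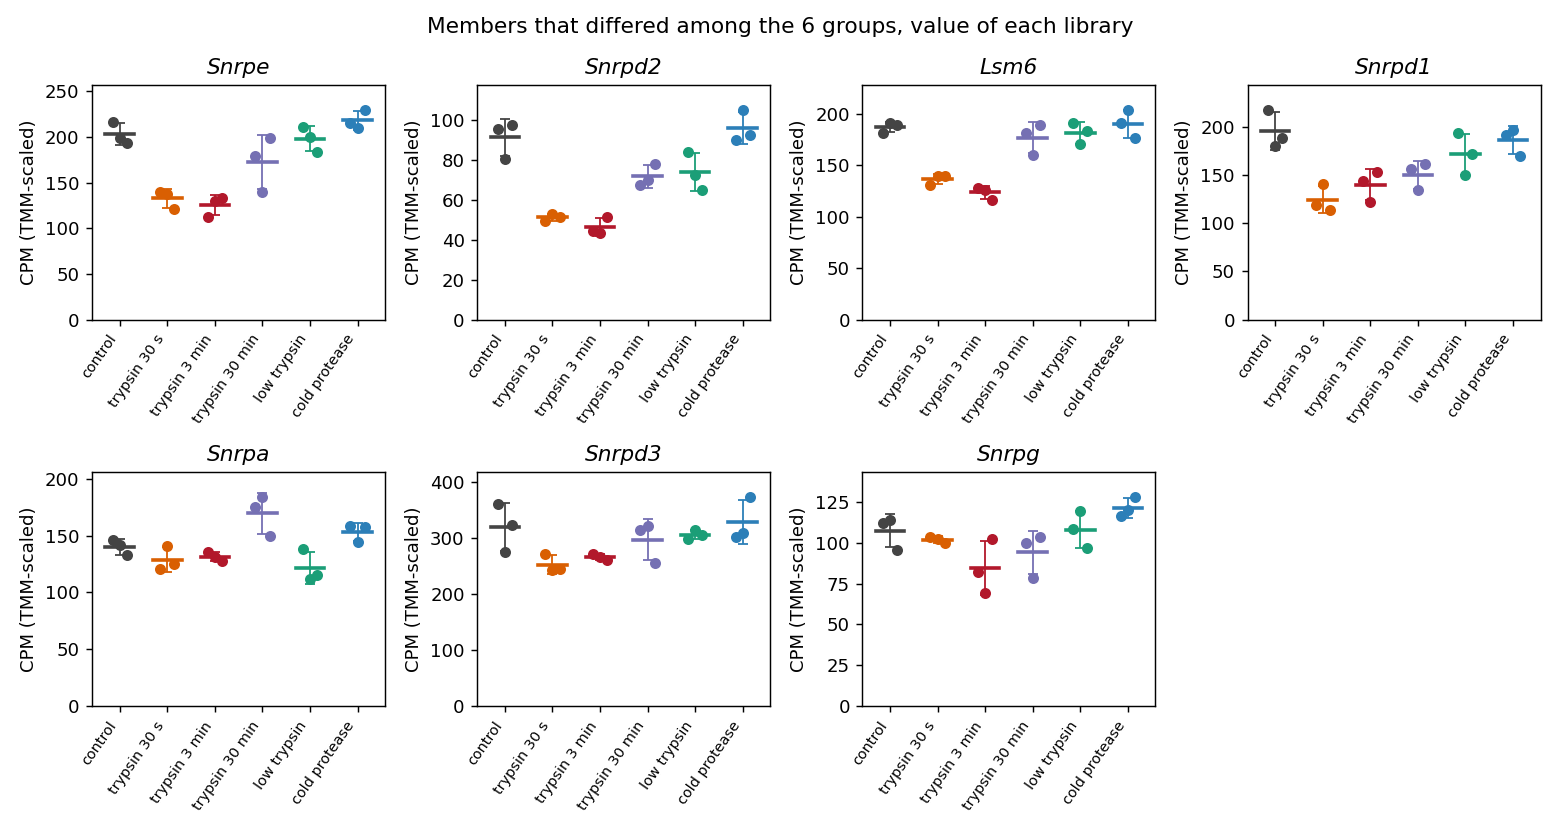
TMM-scaled CPM of the 7 members called by the F test over the 6 groups; each point is a library, the horizontal bar the mean and the error bar the SD of 3 libraries. Snrpe, Snrpd2 and Lsm6 sit lowest after 30 s and 3 min in trypsin and near control with cold protease, while Snrpa is highest at 30 min (149 to 184 CPM).

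Among the 8 genes of the LSm rings 3 fell at 30 s (Lsm5, Lsm6 and Lsm7), 1 at 3 min (Lsm6) and 1 at 30 min (Lsm3). Their median log2 change was -0.29, -0.26 and -0.10 at the 3 times, -0.04 with low trypsin and -0.05 with cold protease.

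Lsm6 is shared by the nuclear and the cytoplasmic ring and lies at chr8:78804865-78821140 on the minus strand (GRCm38). It had 182, 191 and 190 CPM in control, 131, 140 and 139 after 30 s, 128, 126 and 117 after 3 min, and 182, 160 and 189 after 30 min. With low trypsin it had 191, 171 and 183 CPM and with cold protease 191, 204 and 176 CPM. The 6 short-treatment libraries lay below all 12 others. The change was -0.46 ± 0.08 at 30 s (adjusted p = 3.02e-05) and -0.60 ± 0.08 at 3 min (adjusted p = 3.78e-07), against -0.09 at 30 min (adjusted p = 0.656).

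Lsm5, Lsm7 and Lsm3, also part of both rings, lay between 3.83 and 19.5 CPM in all libraries, and each of their calls was lost when single libraries were left out. Lsm5 had 19.2, 19.1 and 12.3 CPM in control against 6.52, 11.3 and 5.89 after 30 s, 9.42, 15.8 and 12.7 after 3 min, 10.1, 7.86 and 11.3 after 30 min, 15.9, 11.4 and 13.1 with low trypsin, and 9.34, 16.1 and 11.5 with cold protease. The 30 s and 30 min libraries all lay below control, and the other groups overlapped with it. Its change at 30 s was -1.08 ± 0.30 (adjusted p = 0.00991), and was not called without control replicate 1 (-0.99, adjusted p = 0.0517) or replicate 2 (-0.96, adjusted p = 0.0835), or without 30 s replicate 1 (-0.95, adjusted p = 0.0821) or replicate 3 (-0.93, adjusted p = 0.0763). At 30 min Lsm5 had a change of -0.78, which did not pass (adjusted p = 0.119). Lsm7 changed by -0.99 ± 0.31 at 30 s (adjusted p = 0.0281), a call lost without control replicate 1 (-0.90, adjusted p = 0.113) or replicate 2 (-0.86, adjusted p = 0.185), or without 30 s replicate 1 (-0.76, adjusted p = 0.238) or replicate 2 (adjusted p = 0.081).

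Lsm3 had 9.63, 19.5 and 11.8 CPM in control, 7.39, 11.3 and 8.57 after 30 s, 11.8, 3.83 and 14.1 after 3 min, and 7.54, 6.29 and 4.41 after 30 min. Low trypsin gave 13.9, 9.75 and 17.3 CPM and cold protease 14, 13.6 and 8.61 CPM. The 30 min libraries lay below control, and control replicate 2 was the highest of all. The change at 30 min was -1.18 ± 0.37 (adjusted p = 0.0432). It passed in 1 of 6 fits that each left out 1 library of the 2 groups: it was lost without control replicate 2 (-0.82, adjusted p = 0.354) or 3 (-1.30, adjusted p = 0.0522), and without 30 min replicate 1 (-1.35, adjusted p = 0.0559), 2 (-1.21, adjusted p = 0.115) or 3 (-1.01, adjusted p = 0.168).

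The other ring members moved less. Lsm2 had 295, 288 and 282 CPM in control, 291, 253 and 289 after 30 s, 279, 283 and 275 after 3 min, 248, 284 and 284 after 30 min, 254, 254 and 264 with low trypsin, and 306, 305 and 305 with cold protease. Its cold protease libraries were the highest and its low trypsin libraries lay below control, but neither change from control passed (0.09, adjusted p = 0.773; -0.16, adjusted p = 0.174). Lsm1, the subunit specific to the cytoplasmic ring, stayed between 68.1 and 96.8 CPM. Lsm8, its nuclear counterpart, changed by -0.12 at 30 s and -0.18 at 3 min, and Lsm4 by -0.06 and -0.19, none of them called.

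Genes of proteins outside the rings showed no called change from control at any time, and so few genes would hold few calls at the shares of all genes. Among U1 proteins, which recognise the 5′ splice site, Snrpa (the A protein, which binds a stem-loop of U1 RNA) had 146, 142 and 132 CPM in control, 120, 141 and 125 after 30 s, 136, 131 and 127 after 3 min, and 175, 184 and 149 after 30 min. Low trypsin gave 138, 112 and 115 CPM and cold protease 158, 144 and 157 CPM. The 30 min libraries lay above all control libraries and opposite in direction to the ring genes, and the change of 0.28 ± 0.09 narrowly missed the threshold (adjusted p = 0.0559). Without 30 min replicate 3 it was 0.36 and passed (adjusted p = 0.0169). Snrnp70 (U1-70K) stayed at 284 to 336 CPM and Snrpc (the C protein) at 20.6 to 37.2 CPM.

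The U2 proteins Snrpa1 and Snrpb2, which together bind a stem-loop of U2 RNA, had changes from control of -0.16 to 0.00. The 3 tri-snRNP genes, among them Snrnp200, the helicase that unwinds U4 from U6, and Snrnp40, a U5 protein, ranged from -0.13 to 0.14. In the U11/U12 snRNP of the minor spliceosome Snrnp48 had values of 0.32 at 30 s (adjusted p = 0.198) and 0.37 at 30 min (adjusted p = 0.134), and Snrnp25 and Snrnp35 ranged from -0.48 to 0.05. Lsm10 and Lsm11, which replace D1 and D2 in the ring of the U7 snRNP that processes histone mRNAs, ranged from -0.21 to 0.17. Lsm12, Lsm14a and Lsm14b carry an LSm domain but join none of these rings, and ranged from -0.33 to 0.19.

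Treatments were also compared with each other. Between 30 s and 3 min in trypsin 3 of the 32 members had an unadjusted p under 0.05, as did 1015 of the 10075 genes tested. No member was called between these times by edgeR or by DESeq2, with 1.94% of all genes called by edgeR. For Snrpd2 this difference was -0.15, with a 95% interval of -0.43 to 0.13. From 3 min to 30 min 4 members rose and none fell, where 2.83% of all genes were called higher and 1.2% lower. They were Snrpd2 (0.64 ± 0.13, adjusted p = 0.000913), Lsm6 (0.51 ± 0.09, adjusted p = 2.19e-05), Snrpe (0.46 ± 0.10, adjusted p = 0.00111) and Snrpa (0.37 ± 0.09, adjusted p = 0.00746). The first 3 of them had been called lower at 3 min, while Snrpa had not. Snrpa was not called without 30 min replicate 2 (0.31, adjusted p = 0.088).

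Low trypsin and the 3 min group spent the same time at 37 °C and differed in whether trypsin stayed on the cells. Against 3 min in trypsin 4 members were higher with low trypsin and none was lower, with 3.78% of all genes called higher and 0.576% lower. Snrpd2 differed by 0.68 ± 0.13 (adjusted p = 0.000172), Snrpe by 0.66 ± 0.09 (adjusted p = 4.28e-07) and Lsm6 by 0.55 ± 0.08 (adjusted p = 2.04e-06). Lsm8 was at 144, 145 and 147 CPM with low trypsin against 121, 118 and 113 CPM at 3 min, a difference of 0.31 ± 0.09 (adjusted p = 0.0279). The Lsm8 call was lost in 5 of 6 fits that left out 1 library: without low trypsin replicate 1 (adjusted p = 0.072), 2 (adjusted p = 0.0708) or 3 (adjusted p = 0.0823), and without 3 min replicate 2 (adjusted p = 0.082) or 3 (adjusted p = 0.107). Snrpd1 (0.30, adjusted p = 0.062) and Snrpg (0.36, adjusted p = 0.0603) did not pass. Both passed without 3 min replicate 3 (adjusted p = 0.0305 and 0.00489), Snrpd1 also without low trypsin replicate 2 (adjusted p = 0.0161) and Snrpg without low trypsin replicate 3 (adjusted p = 0.027).

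With cold protease 6 members were higher than after 3 min in trypsin (2.84% of all genes called higher) and 1 was lower (0.864% called lower). Of the 8 Sm ring genes 5 were higher: Snrpd2 by 1.06 ± 0.13 (adjusted p = 2.95e-09), Snrpe by 0.80 ± 0.09 (adjusted p = 1.77e-09), Snrpg by 0.53 ± 0.11 (adjusted p = 0.00102), Snrpd1 by 0.42 ± 0.10 (adjusted p = 0.00227) and Snrpd3 by 0.29 ± 0.08 (adjusted p = 0.0207). Lsm6 was higher by 0.62 ± 0.08 (adjusted p = 7.97e-08). Enzyme, temperature and time all differ between these groups and cannot be told apart. Snrpg and Snrpd1 were not called without 3 min replicate 2 (0.41, adjusted p = 0.0578; 0.34, adjusted p = 0.0767). Snrpd3 was not called without cold protease replicate 3 (0.20, adjusted p = 0.32), 3 min replicate 2 (0.30, adjusted p = 0.0735) or 3 min replicate 3 (0.29, adjusted p = 0.0714).

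The member lower with cold protease was Lsm14a, which encodes a protein of cytoplasmic RNA granules involved in translational repression. It had 98.8, 99.2 and 106 CPM in control, 96.9, 98.9 and 92.1 after 30 s, 118, 93.5 and 99.8 after 3 min, 96.8, 90.2 and 97.1 after 30 min, 105, 102 and 93 with low trypsin, and 85, 77 and 80.9 with cold protease. The cold protease libraries lay below the other 15. The difference from 3 min was -0.36 ± 0.10 (adjusted p = 0.0309) and that from control -0.33 (adjusted p = 0.173). The call was lost without 3 min replicate 1 (-0.25, adjusted p = 0.398) or 3 (-0.37, adjusted p = 0.0593), and without cold protease replicate 2 (-0.32, adjusted p = 0.177) or 3 (-0.36, adjusted p = 0.0782).

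**Figure D3:**
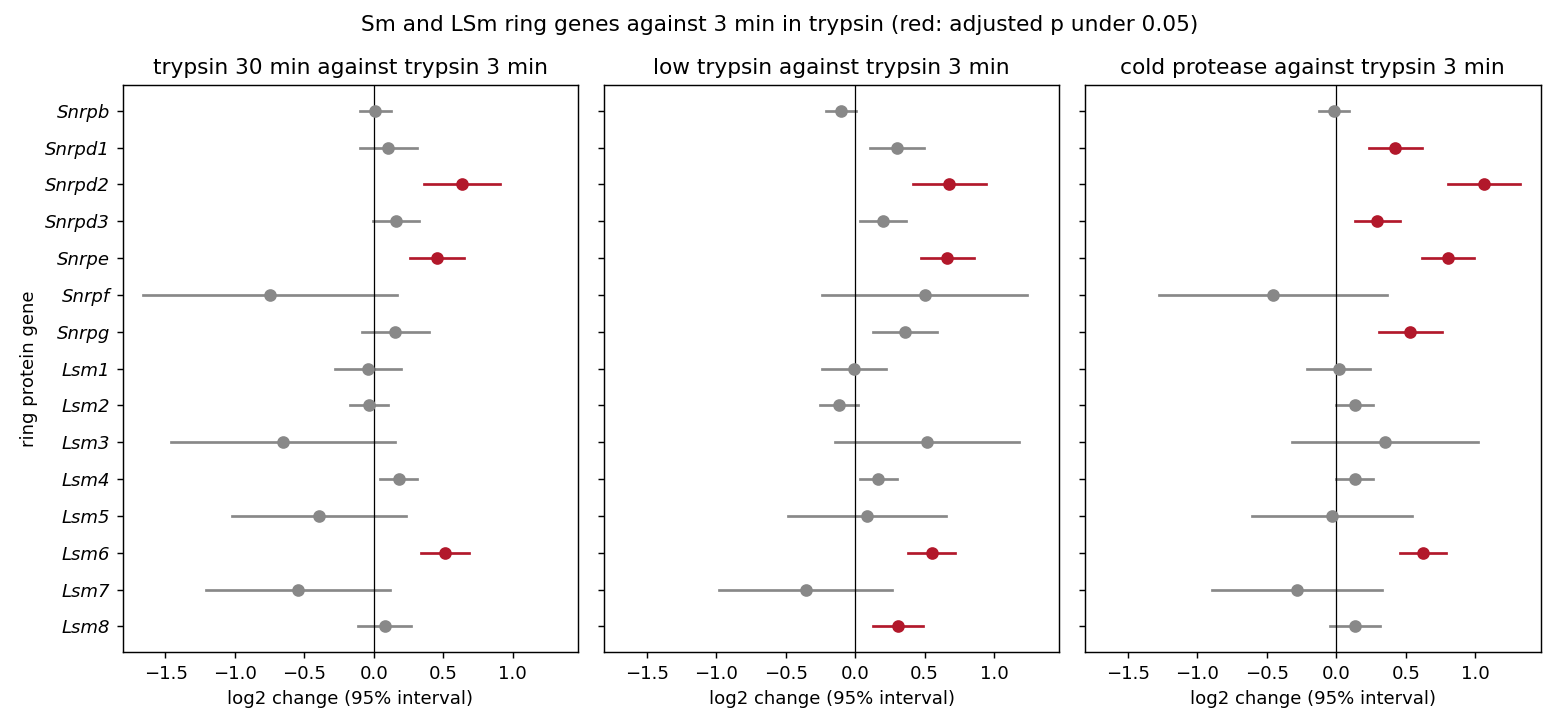
Fitted log2 difference (x axis, with 95% interval) of 7 Sm and 8 LSm ring genes (rows) for 30 min in trypsin, low trypsin and cold protease, each against 3 min in trypsin; red marks an adjusted p under 0.05. Snrpd2, Snrpe and Lsm6 are higher in all 3 panels, which share the 3 min libraries, and Snrpb stays near 0.

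The members called lower against control were mostly short mRNAs, and length moved with these results. By the annotation used, with the shortest full-length principal transcript as the measure, Snrpe is 503 nt long, Lsm6 541 nt (other principal transcripts reach 3792 nt), Snrpd1 858 nt, Snrpd2 1420 nt and Snrpd3 3036 nt. By the same measure Lsm7 is 468 nt, Lsm5 494 nt and Lsm3 618 nt long, but their levels were too low for the length classes below. Which transcript the cells used was not measured. Among the 437 other coding genes under 1000 nt with a mean of at least 50 CPM, 41.9% were called lower at 30 s and 41% at 3 min, against 3.17% and 1.78% of 3595 longer ones (a limit chosen after the values were seen). Of the 8 members in that short class 3 were lower at 30 s and 3 at 3 min (37.5% at each time), with median changes of -0.12 and -0.19. The other short coding genes had medians of -0.21 and -0.22. Of the 14 longer members 2 fell at 30 s (Snrpd2 and Snrpd3) and 1 at 3 min (Snrpd2). Across these 22 members, which share the same libraries, Spearman's rho of log2 change with length was 0.35 at 30 s and 0.54 at 3 min, and across the 4032 other genes 0.13 and 0.30.

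When a trend with length was taken out of each library, Snrpd2 kept a change of -0.85 at 30 s (adjusted p = 3.63e-07) and -0.97 at 3 min (adjusted p = 1.39e-07). Snrpe went to -0.41 (adjusted p = 0.000488) and -0.36 (adjusted p = 0.00829), and Lsm6 to -0.28 (adjusted p = 0.0212) and -0.29 (adjusted p = 0.0404), which still passed. The rises of Snrpe and Lsm6 from 3 min to 30 min became 0.17 (adjusted p = 0.417) and 0.25 (adjusted p = 0.102), and their differences between low trypsin and 3 min 0.27 (adjusted p = 0.0837) and 0.20 (adjusted p = 0.274), none of which passed. Of the other calls, Lsm7 at 30 s (-0.80, adjusted p = 0.117), Lsm8 with low trypsin (0.14, adjusted p = 0.585), and Snrpd1 (0.28, adjusted p = 0.0953) and Lsm14a (-0.33, adjusted p = 0.0609) with cold protease were also lost, as was Lsm3 at 30 min (-1.12, adjusted p = 0.0626). Snrpd3 at 3 min (-0.28, adjusted p = 0.0364) and Snrpa at 30 min (0.32, adjusted p = 0.0205) passed. What part length has in the falls beyond this was not tested.

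**Figure D4:**
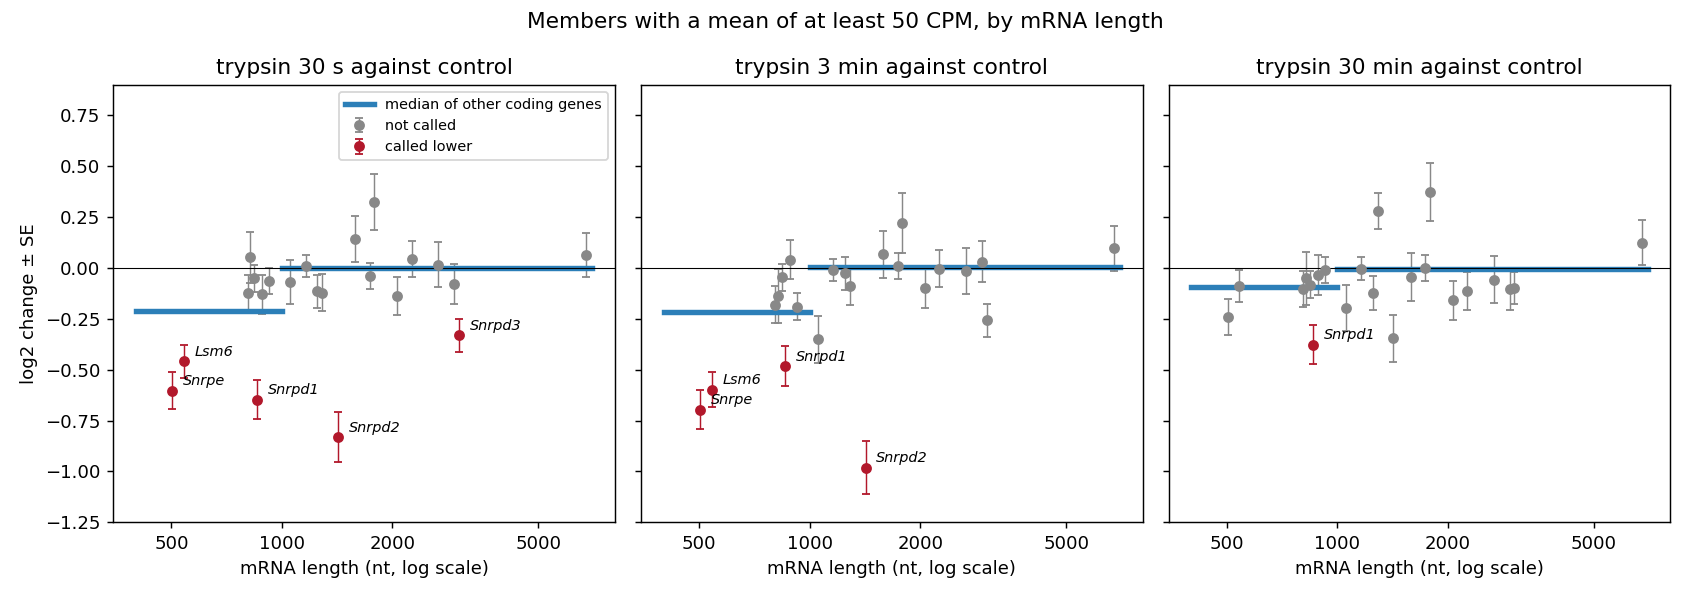
Log2 change ± SE of the 22 members with a mean of at least 50 CPM (y axis) by mRNA length in nt (x axis, log scale) at 3 trypsin times against control; red points were called lower and blue lines give the median of other coding genes under and over 1000 nt. At 30 s and 3 min Snrpd2, at 1420 nt, has the lowest value although the median of the longer genes is near 0.

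Several members have close copies in the genome, and how the authors' counting treated reads with several matches is not stated in the labels. The share of 45-base stretches of the mRNA also found in transcripts of other genes was 63.21% for Lsm7, 44.67% for Lsm5, 31.37% for Snrpe, 30.11% for Snrpc, 27.65% for Snrpa, 25.48% for Snrpn, 22.82% for Lsm3, 21.93% for Lsm6, 21.79% for Snrpf, 18.5% for Snrpg, 16.22% for Snrpd1, 13.47% for Lsm12 and 13.01% for Snrpd2. All other members had at most 8.72%. In the last 300 bases, nearest to where most reads start, the share was 51.17% for Lsm3, 48.05% for Lsm7, 26.95% for Lsm6, 23.05% for Lsm5, 21.48% for Snrpa and 21.09% for Snrpc, so levels of these 6 are uncertain. It was 5.86% for Snrpe, 3.12% for Snrpn and 0 for every other member, Snrpd1, Snrpd2 and Snrpd3 among them. In all, 23 pseudogenes in the table resembled 11 members, but held few counts (20 against 6023 for Snrpe, 7 against 2480 for Snrpd2, 29 against 215 for Snrpf). On their own strand Lsm3 overlaps AC161456.1, Snrpa1 overlaps Gm45213, and Snrpn overlaps Snurf and Gm38393. Antisense genes overlap Snrpa (BC024978), Snrpd3 (Gucd1), Snrpf (4933408J17Rik and Ccdc38), Lsm14a (2310043P16Rik and Gm12764), Snrpn (Gm18908) and Lsmem1 (Gm17056). The strand used in counting was not given, so such reads may be mixed.

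Other genes of splicing and of related steps, among them mRNA decapping and histone mRNA processing, were taken from 10 lists and changed in both directions. Of 119 tested 5 rose and 4 fell at 30 s (7.56%, against 6.94% of all genes called in either direction), 2 rose and 1 fell at 3 min (2.52%, against 3.96%), 4 rose and 2 fell at 30 min (5.04%, against 4.68%), 4 rose with low trypsin (3.36%, against 5.19%) and 1 fell with cold protease (0.84%, against 0.665%). These shares were near those of all genes. Their median log2 changes lay between -0.02 and 0.02. No gene was called among the 12 of SMN and PRMT5 assembly, which load the Sm ring on snRNA, the 8 decapping partners of the cytoplasmic LSm ring or the 8 partners in U11/U12. Lists this short would hold few calls at the shares of all genes, so nothing particular to them is read from this.

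Single genes of the other lists changed. Casp8ap2, which encodes a protein needed for histone mRNA processing, was higher at 30 s (0.61), 3 min (0.87), 30 min (0.90, adjusted p = 0.000723) and with low trypsin (0.65). Ddx23, a helicase of the tri-snRNP, rose at 30 s by 0.86 ± 0.14 (adjusted p = 1.04e-05) and Cdc5l, of the Prp19-associated complex, fell by 0.40 (adjusted p = 0.0436). U2af2, which recognises the polypyrimidine tract, rose by 0.42 ± 0.12 at 30 min (adjusted p = 0.0182). Hnrnpf, an RNA-binding splicing regulator, fell at 30 min by 0.89 ± 0.17 (adjusted p = 0.000134) and with cold protease by 0.60 ± 0.15 (adjusted p = 0.0328). Of the 11 SR protein genes 2 rose and 1 fell at 30 s (27.3%, against 6.94% of all genes called in either direction). One rose at 3 min and 1 with low trypsin (9.09% each, against 3.96% and 5.19%), and none was called with cold protease. With so few genes, nothing particular to this list is read from these shares. At 30 min 1 fell and 1 rose (18.2%, against 4.68%). Srsf3 fell by 0.30 ± 0.06 (adjusted p = 0.000635) and Srsf5 rose by 0.36 ± 0.10 (adjusted p = 0.0135). Srsf5 was also higher at 30 s (0.30) and 3 min (0.34), and Srsf9 at 30 s (0.22) and with low trypsin (0.26), and Srsf3 was also lower at 30 s (-0.18). Srsf5 and Srsf9 were named after their values were seen. Ssb, the La protein that binds the ends of new small RNAs, fell at 30 s by 0.55 ± 0.14 (adjusted p = 0.00778) and was called at none of the other 4 treatments against control. Between treatments Ssb was higher at 3 min than at 30 s (0.66, adjusted p = 0.00317). Compared with 3 min it was lower with cold protease (-0.54, adjusted p = 0.0133) and with low trypsin (-0.46, adjusted p = 0.04875).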

How the data were processed

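Gene expression in 18 libraries (6 groups of 3) was deposited by the authors as whole-number counts per gene. The submitters' processing notes name HISAT2 2.1.0 and featureCounts 2.0.1 on GRCm38, with UMI-tools 1.0.1, Trim Galore 0.6.6, cutadapt 2.6 and DESeq2 1.28.1. The settings of these programs are not stated there. Other deposited tables held the same information and were not used.

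The deposited counts were fitted in edgeR 4.0.16 (R 4.3.3) with TMM scaling, genes filtered by filterByExpr by group, all 18 libraries in 1 fit without covariates, and two-sided quasi-likelihood F tests adjusted by Benjamini-Hochberg over 10075 genes. SE and 95% intervals are Wald values from that fit, whose common biological coefficient of variation was 6.08%. An exact permutation test of 3 against 3 cannot go below p = 0.1, so calls rest on the model. Libraries of a group differed by more than sampling noise (chi-square per degree of freedom 1.43 to 2.72). Alternatives were DESeq2 1.42.0, 2 other scalings, other filters, a lot block, a length offset (lowess, span 0.3), added pseudogene counts, fits of 2 groups and leaving out each library. Lengths, copies and positions came from GENCODE on GRCm38 and blastn 2.17.0, and promoters from RefSeq. Members and lists were chosen with earlier results of these data known. Values per library were given for Snrpd2 and the 12 members with the smallest p of the F test over the groups. From each other list the called gene with the smallest such p was named.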

Additional observations from a re-analysis of the deposited data

Results flagged for a closer look

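In 4 members the level differed between 3 min and 30 min in trypsin by the direct test of the 2 groups in edgeR. Time at 37 °C and time in trypsin cannot be told apart here. The log2 difference of 30 min minus 3 min was 0.64 for Snrpd2, 0.51 for Lsm6, 0.46 for Snrpe and 0.37 for Snrpa. All 3 libraries at 30 min were above all 3 at 3 min in each of these genes. The test that picked the genes used the same libraries, so this is no separate support.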

How the results depend on the processing

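Of 28 calls of a member in a comparison, 13 held under every alternative run, 15 were lost under at least 1, 9 of them under an alternative other than leaving out a library, and none changed sign. The number of members called at 30 min against control, 2, became 1 with DESeq2 (which gave Lsm3 no adjusted p) and 1 with the replicate block. Calls over all genes tested there went from 472 to 323 and to 459. With the length offset the 4 members called from 3 min to 30 min became 2, and the 4 with low trypsin against 3 min became 2, of which 1 was lower (Lsm2, -0.26). Calls over all genes tested also became fewer with this offset, from 406 to 346 and from 439 to 345. Leaving out each library in turn gave 4 to 7 members called at 30 s, 4 to 5 at 3 min, 0 to 3 at 30 min, 0 to 1 with low trypsin and 0 with cold protease against control. It gave 0 between 30 s and 3 min and 3 to 5 from 3 min to 30 min. Against 3 min it gave 3 to 5 with low trypsin and 4 to 7 with cold protease, and 6 to 8 in the F test. Over all genes tested, the main fit and all alternatives called 537 to 737 at 30 s and 290 to 403 at 3 min. They called 304 to 474 at 30 min, 361 to 531 with low trypsin and 35 to 80 with cold protease. Between 30 s and 3 min they called 145 to 209, and from 3 min to 30 min 311 to 416. Against 3 min they called 339 to 450 with low trypsin and 277 to 398 with cold protease, and 891 to 1200 in the F test.

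Lots with the same number barely deviated together (correlations of -0.06 to 0.07). Every sample correlated best with its own number in 1 of 9 comparisons, low trypsin against 3 min in trypsin. With 3 libraries per group and labels that do not define a lot, this cannot decide whether lots of the same number share an origin. With the replicate block Lsm3 at 30 min was -1.18 (adjusted p = 0.052), and no other call was lost. Intervals were wide for members with few counts: Snrpf, with 215 counts over 18 libraries, had -2.06 to -0.34 at 30 min.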
